A study of Rattus norvegicus with 12 samples.

Results

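The recombined tissue was a 6 day culture of ureteric buds (UBs) that had been formed in vitro and had not branched, joined with metanephric mesenchyme (MM), the cells from which nephrons arise. The series title describes it as a recombination of budded Wolffian duct (WD) with MM. It was compared here with rat kidney at postnatal week 4 (Wk4), and the 2 recombined arrays and the 3 Wk4 arrays are 5 of the 12 arrays of the series. The remaining arrays hold kidneys of embryonic day 13 (E13, n = 3) and 18 (E18, n = 4), and they entered the fit only to share its estimate of the spread. All samples were total RNA extracted with an Ambion micro kit and labelled as biotinylated cRNA from 6 ug. The labels say that embryonic kidneys were processed right after dissection, and they give no strain, sex, pooling or source of the duct and mesenchyme. Whether the replicates are different cultures or animals is also not stated, and the p-values therefore measure spread among these arrays that may be technical. The study asked whether recombined tissue follows normal developmental pathways, and its design names a 3-fold difference as the threshold.

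The ureteric bud is an epithelial outgrowth of the Wolffian duct that branches to form the collecting duct system, and its tips signal to the mesenchyme through Ret. The mesenchyme condenses around the tips, and its progenitors, marked by genes such as Eya1, Sall1 and Wt1, form vesicles under Wnt4 that lengthen into the podocytes, the proximal and distal tubules and the loop of Henle. In the mature kidney the proximal tubule dominates the RNA. It reabsorbs glucose, amino acids, phosphate and filtered proteins, makes glucose and lives on fatty acids, while the stroma between tubules has become sparse.

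Of 22599 probe sets tested, 3435 (15.2%) differed between recombined tissue and Wk4 kidney with an adjusted p under 0.05 and at least 3-fold. Of these, 1781 (7.88%) were higher and 1654 (7.32%) lower in recombined tissue. Counting 1 probe set a gene, 2152 of 11920 genes (18.1%) were called, 1048 higher (8.79%) and 1104 lower (9.26%). Of the called genes, 554 had several kept probe sets, and in 259 of these every probe set was called in the same direction. In 1 gene a probe set was called the other way. The direction that holds more probe sets depended on scaling: 51.8% of the calls were higher with the deposited values, 43.0% with each array centred on its median and 47.6% after quantile normalization. Differences are recombined minus Wk4 on the log2(signal + 271) scale with the standard error of the limma fit, so that dim probe sets are drawn together and a fold is understated where either signal is low. The median over all genes tested was 0.14, and -0.02 after median centring. The largest differences lay on the lower side: 351 called genes were at least 10-fold lower and 33 at least 100-fold lower, against 96 and 2 higher. Both recombined arrays lay below their own 40th percentile for 410 of the genes called lower, and all Wk4 arrays did for 326 of those called higher. Arrays of the 2 groups correlated at r = 0.7665 to 0.7805 over all 31042 probe sets, before the filter. The values were 0.9554 between the recombined arrays and 0.9699 to 0.9728 among the Wk4 arrays, as a description.

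**Figure D1:**
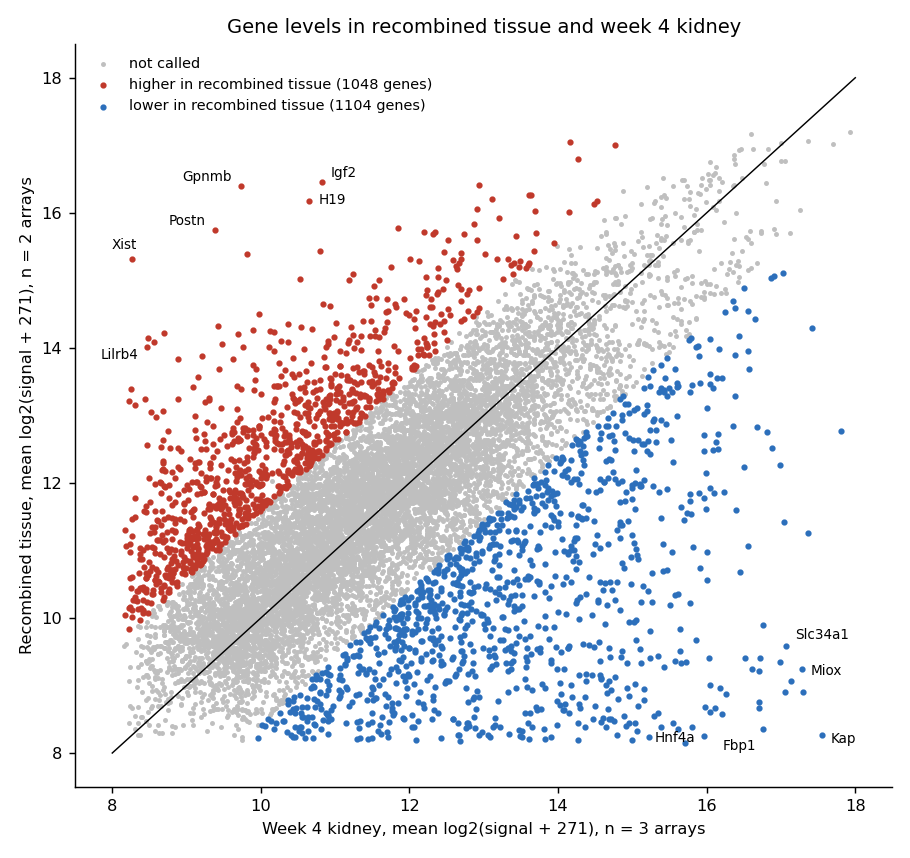
Mean log2(signal + 271) of each of 11920 genes in Wk4 kidney (horizontal, n = 3 arrays) and recombined tissue (vertical, n = 2 arrays). The 1048 genes called higher are red, the 1104 called lower are blue, the line marks equal levels, and the genes farthest below it, such as Kap and Fbp1, are bright in Wk4 kidney and at the floor of the recombined arrays.

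Defining markers matched the labels in part. In Wk4 kidney, Slc34a1, Lrp2, Umod, Slc12a1, Slc12a3, Aqp2, Nphs1 and Pecam1 were above the 40th percentile of all 3 arrays. Among bud markers, Ret, Gata3, Cdh1, Krt8 and Krt18 were above it on both recombined arrays, and the tip ligand Wnt11 was below it on all 5 arrays. Among mesenchyme markers, Sall1, Eya1 and Wt1 were above it on both recombined arrays, and Gdnf, the ligand of Ret, was below it on all 5. Gata3, Cdh1, Krt8, Krt18, Sall1, Eya1 and Wt1 were also above it on all 3 Wk4 arrays, while Ret was below it there. Lrp2 and Pecam1, named for Wk4 kidney, were above it on both recombined arrays. The cut alone thus does not separate the tissues. Wnt9b, Six2, Cited1, Osr1 and Cdh5 were not analysed here. Xist, the RNA of the inactive X chromosome, read 32158 and 50888 on the recombined arrays and 23.5, 29.7 and 55.8 on the Wk4 arrays. The Y-linked Eif2s3y read 9745 and 4099 on the recombined arrays and 6053, 7871 and 6151 on the Wk4 arrays. Recombined tissue thus held both transcripts, Wk4 kidney held Eif2s3y with Xist near the floor, and a difference of sex and one of tissue cannot be told apart for the genes described here. Xist was called higher (7.05 ± 1.59, adjusted p = 0.00176), and the E18 arrays, which share its error, ran from near the floor to 52818. Of macrophage, fibroblast and smooth muscle markers, Cd68, Csf1r, C1qa, C1qb, Cd14, Col1a1, Col1a2, Col3a1, Acta2, Tagln, Cnn1 and Myh11 were called higher in recombined tissue, and Lyz2, Dcn and Pdgfra were not called (1.15 ± 0.17, 1.15 ± 0.24 and 1.51 ± 0.15).

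**Figure D2:**
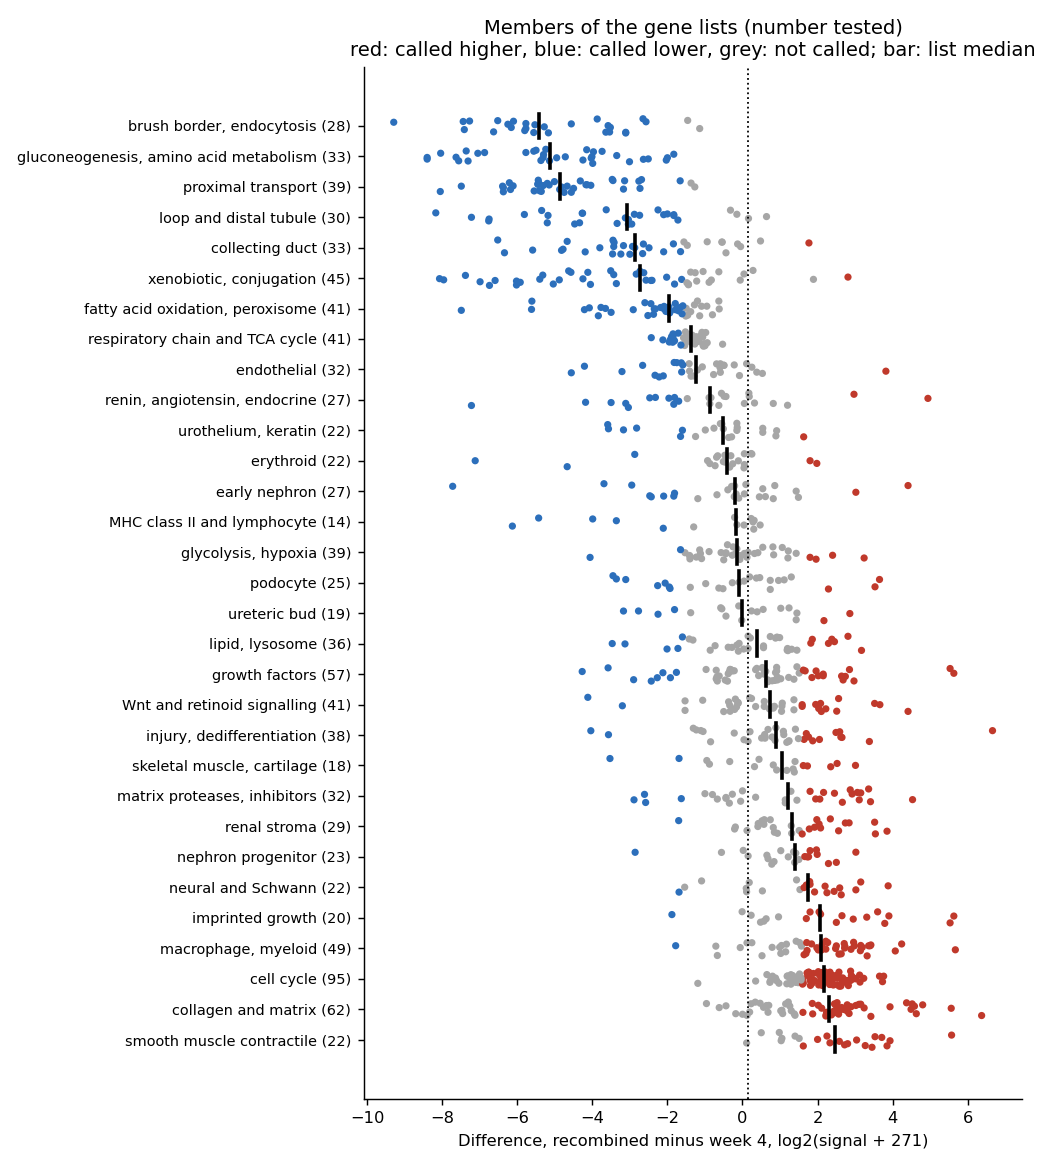
Difference of each tested gene of 31 lists between recombined tissue and Wk4 kidney on the log2(signal + 271) scale, 1 point a gene, with the number tested beside each name. Bars mark list medians, from -5.41 for brush border and endocytosis to 2.46 for smooth muscle, and the dotted line marks the median of all genes, 0.14.

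Genes of the proximal tubule were the lowest of the lists in recombined tissue. The counts of every list are to be read beside all genes tested, of which 8.79% were called higher and 9.26% lower. Of 44 transporters of its apical and basal membranes, 39 were tested, and 37 were called lower and 0 higher, with a median of -4.87 beside 0.14 for all genes. Of 30 brush border and endocytosis genes, 28 were tested and 26 were lower (median -5.41). Of 39 genes of gluconeogenesis and amino acid metabolism, the 33 tested were called lower (median -5.14). In bulk tissue, fewer cells of a type and less RNA per cell cannot be told apart, and the counts describe tested genes only, since genes dim on at least 11 of the 12 arrays had been removed.

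Promoter sequences of genes at the far end of the lower side, and of proliferation genes described further on, are shown because their members moved together. The 300 bases run from 250 before to 50 after each gene's start, 5' to 3' on the gene's strand, from RefSeq on GRCr8, and 9862 of the 11920 genes tested had one. The hepatocyte nuclear factors HNF1 and HNF4 are regulators of proximal tubule and liver genes. The letters GTTAAT (the core of an HNF1 site, either strand) stood in 19 of 89 promoters among the 100 called genes with the lowest differences (21.3%), in 8.02% of all promoters called lower, in 4.81% of those called higher and in 4.39% of those tested. The full palindromic HNF1 motif, which contains that core, stood in 3 of 910 promoters called lower (0.33%), in 0 of 810 called higher and in 0.0507% of those tested. The HNF4 letters CAAAGTCCA stood in 8 promoters called lower (0.879%), in 0.123% of those called higher and in 0.345% of those tested. Of all 27457 promoters, tested or not, 7.37% held GTTAAT, 0.0546% the full HNF1 motif and 0.375% the HNF4 letters. All these counts are matches of letters in a short window, not sites. Cltrn holds the full HNF1 motif at -132 (chrX:34027075-34027374, minus strand). Pdzk1 holds the HNF4 letters at -9 (chr2:187064745-187065044, plus strand) and Slc3a1 holds them on the other strand at -89 (chr6:15394700-15394999, minus strand), with the matched letters in capitals:
Cltrn: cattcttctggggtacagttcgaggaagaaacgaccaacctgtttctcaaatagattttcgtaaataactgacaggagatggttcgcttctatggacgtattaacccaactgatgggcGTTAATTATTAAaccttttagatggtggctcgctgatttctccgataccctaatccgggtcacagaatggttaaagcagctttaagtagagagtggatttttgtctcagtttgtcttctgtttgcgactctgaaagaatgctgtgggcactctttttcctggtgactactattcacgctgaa
Pdzk1: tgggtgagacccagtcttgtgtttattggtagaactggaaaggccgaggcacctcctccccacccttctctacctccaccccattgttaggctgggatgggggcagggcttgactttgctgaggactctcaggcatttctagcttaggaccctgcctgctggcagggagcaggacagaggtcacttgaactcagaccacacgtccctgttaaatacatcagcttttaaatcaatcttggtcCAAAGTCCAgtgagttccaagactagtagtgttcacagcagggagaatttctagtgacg
Slc3a1: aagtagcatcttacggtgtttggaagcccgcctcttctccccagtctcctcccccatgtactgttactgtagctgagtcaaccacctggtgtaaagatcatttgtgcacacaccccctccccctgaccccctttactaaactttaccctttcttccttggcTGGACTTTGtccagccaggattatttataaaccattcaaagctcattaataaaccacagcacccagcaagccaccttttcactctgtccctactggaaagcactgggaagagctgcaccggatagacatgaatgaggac

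Kap, the kidney androgen-regulated protein of the proximal tubule, had the lowest difference of any gene. It read 46.2 and 27.0 on the recombined arrays and 217003, 185113 and 174971 on the Wk4 arrays, a difference of -9.29 ± 0.17 (adjusted p = 9.35e-14). In the mouse Kap is known to depend on androgen, and the part of sex in its difference was not tested. Cltrn, the collectrin that carries amino acid transporters to the brush border and whose promoter is printed above, read 210 and 73.2 against 77009, 66352 and 68251 (-7.44 ± 0.32). Pdzk1, the scaffold under those transporters, read 27.3 and 83.9 against 51550, 50042 and 48467 (-7.27 ± 0.18). The aspartic protease gene Napsa differed by -7.41 ± 0.18. In each of these genes both recombined arrays lay far below the 3 Wk4 arrays.

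Slc7a13, a transporter of acidic amino acids, led the transporters. Its signals were 74.5 and 205 on the recombined arrays and 116254, 107384 and 98003 on the Wk4 arrays (-8.05 ± 0.2, adjusted p = 1.38e-12). Slc34a1, which reabsorbs phosphate, read 271 and 811 against 156154, 128491 and 128050 (-7.49 ± 0.3, adjusted p = 7.26e-11). Slc3a1, the heavy chain of the cystine transporter, had a measurable level, 2664 and 1779, against 184804, 167123 and 156290 (-6.11 ± 0.2). The organic anion transporters Slc22a6 and Slc22a8 both differed by -6.37, and Slco1a6 by -6.39. The transporters with the smallest differences were Slc5a1, a glucose carrier (-1.66 ± 0.3), and the uncalled Slc7a8 (-1.37 ± 0.27) and Abcc2 (-1.27 ± 0.22).

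The receptors that take up filtered protein were lower on both recombined arrays, which also differed from each other. Lrp2, or megalin, read 808 on replicate 1 and 2445 on replicate 2, against 62913, 56820 and 65076 (-5.17 ± 0.28). Its partner Cubn, or cubilin, read 320 and 87.4, in the opposite order, against 30549, 30024 and 33409 (-6.1 ± 0.26). The water channel Aqp1 read 1076 and 2538 against 33764, 32350 and 35754 (-4.14 ± 0.26). Some brush border genes were also bright in recombined tissue, and which cells expressed them there was not tested. The aminopeptidase Anpep read 6406 and 5581 against 74178, 63860 and 77133 (-3.52 ± 0.15). Mme, or neprilysin, read 11574 and 10199 against 29554, 30544 and 31284, and the uncalled difference was -1.46 ± 0.21. Dab2, the adaptor of megalin, read 40164 and 39362 against 98362, 83652 and 82010, a difference of -1.14 ± 0.2 that also fell short of 3-fold.

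Among enzymes of glucose synthesis and amino acid breakdown, 17 of the 33 tested genes were dim in recombined tissue, each array reading under its own 40th percentile. Fbp1, an enzyme of gluconeogenesis, read 87.7 and 29.2 against 128470, 102082 and 103606 (-8.4 ± 0.33, adjusted p = 6.87e-11). Pck1, its rate-limiting enzyme, read 286 and 494 against 142219, 133312 and 114144 (-7.63 ± 0.2). Both were separated from every Wk4 array by more than their replicates differed. Hao2, a peroxisomal oxidase, read 123 and 305 against 191915, 157488 and 137153 (-8.4 ± 0.24). Miox, which opens the inositol ring, differed by -8.04 ± 0.25, the D-amino acid oxidase Dao by -7.56 ± 0.21, and Ass1, which makes argininosuccinate, by -6.87 ± 0.2. The smallest of the differences in this group belonged to Arg2, the mitochondrial arginase (885 and 1882 against 5120, 6046 and 4964; -1.83 ± 0.21), and Bhmt (-2.0 ± 0.29).

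Hnf4a, the nuclear receptor that drives proximal tubule maturation, was itself at the floor. It read 37.2 and 30.6 on the recombined arrays and 61741, 61799 and 68813 on the Wk4 arrays (-7.72 ± 0.17, adjusted p = 7.02e-13). The others of the 15 lowest named genes were Kap, Fbp1, Hao2, Umod, Sult1c2a, Slc7a13, Miox, Cyp2c23, Pck1, Defb1, Dao, Acsm2, Slc34a1 and Cltrn.

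**Figure D3:**
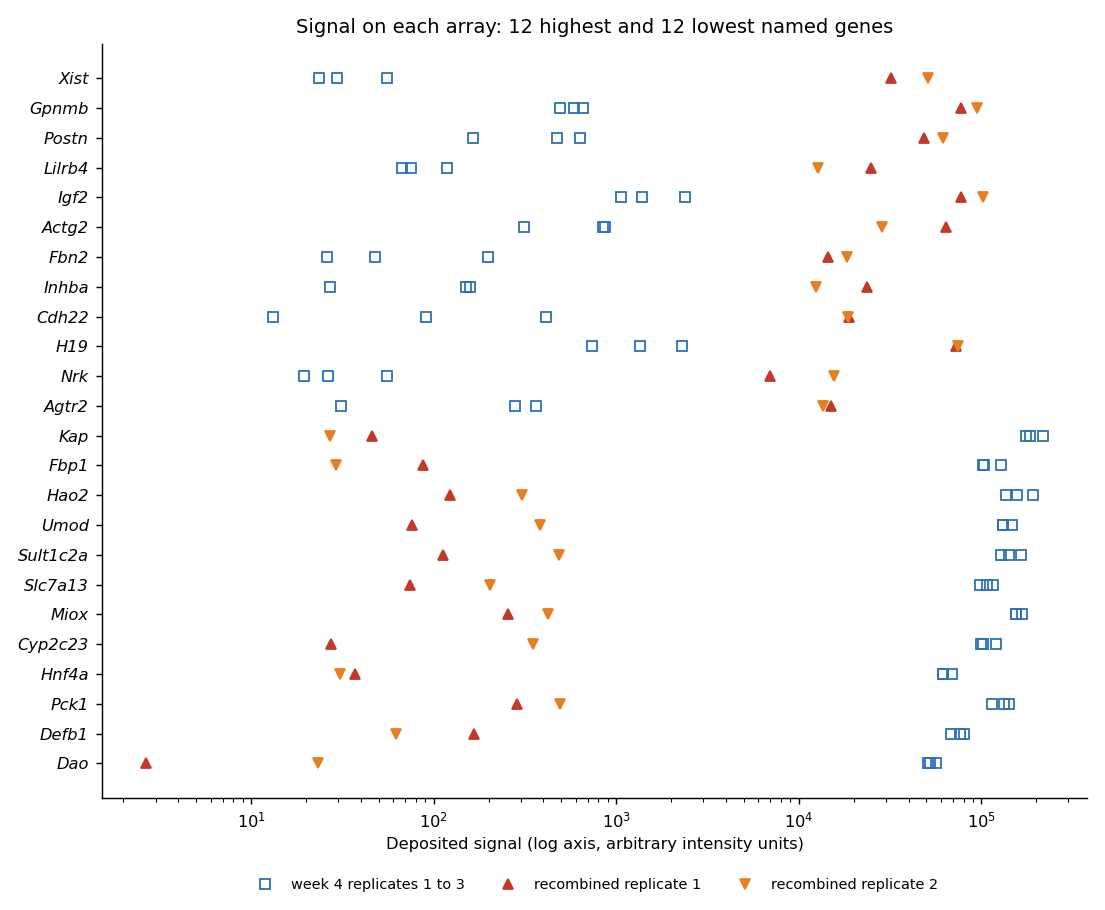
Deposited signal (log axis, arbitrary units) on each of the 5 arrays for the 12 highest and 12 lowest named genes. Squares are the Wk4 replicates, upward triangles recombined replicate 1 and downward triangles recombined replicate 2, and the genes were chosen among those without overlap.

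Fatty acid oxidation and the respiratory chain had smaller differences. Of 44 genes of fatty acid oxidation and peroxisomes, 41 were tested and 29 were called lower and 0 higher (median -1.96). Acsm2, a medium-chain acyl-CoA ligase, read 292 and 356 against 115490, 95821 and 109167 (-7.49 ± 0.3). Ehhadh, the peroxisomal bifunctional enzyme, read 19.8 and 31.2 against 13104, 15318 and 14246 (-5.61 ± 0.22), and Acsm3 differed by -5.62 ± 0.23. The mitochondrial trifunctional subunit Hadhb read 18722 and 22950 against 30665, 32687 and 33356 (-0.63 ± 0.11), and the carnitine carrier Slc25a20 differed by -0.62 ± 0.14, both under 3-fold. Ppargc1a, a coactivator of mitochondrial biogenesis, read 841 and 748 against 6807, 7784 and 8675 (-2.91 ± 0.17).

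Of 48 genes of the respiratory chain and tricarboxylic acid cycle, 41 were tested. Only 12 passed 3-fold, each lower, but 40 were lower by adjusted p alone, which held for 25.3% of all genes. The median was -1.38. The mitochondrial pyruvate carrier subunits led, with Mpc1 at 12410 and 9990 against 66629, 60315 and 56815 (-2.43 ± 0.14) and Mpc2 at -2.12 ± 0.14. The complex I subunit Ndufs3 read 7015 and 7085 against 27849, 28347 and 27619 (-1.95 ± 0.1). The ATP synthase subunit Atp5f1a read 35021 and 29208 against 91115, 83822 and 88193, an uncalled difference of -1.45 ± 0.11. By symbol pattern, 7 of 35 complex I subunits were called lower, 32 by adjusted p alone.

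Enzymes that conjugate or oxidise foreign compounds and steroids followed. Of 60 genes, 45 were tested, 30 lower, 1 higher and 14 not called (median -2.73). The sulfotransferase Sult1c2a read 112 and 488 against 165467, 142002 and 127558 (-8.07 ± 0.35). The epoxygenase Cyp2c23 read 27.4 and 350 against 121021, 101694 and 99776 (-7.96 ± 0.27), and the fatty acid hydroxylase Cyp4a8 differed by -7.38 ± 0.19. Among the Cyp1 enzymes, Cyp1a1 was lower (19.6 and 191 against 6104, 10606 and 10613; -4.63 ± 0.28) and Cyp1b1 was higher (10149 and 8740 against 1422, 1005 and 960; 2.81 ± 0.32, adjusted p = 4.06e-06). Without recombined replicate 2, 2 genes of this group were called higher. Probe sets of such multigene families can bind more than 1 member, and this was not tested.

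The loop of Henle and distal tubule followed the proximal tubule. Of 38 genes, 30 were tested, 26 lower and 0 higher (median -3.08). Umod, the urinary glycoprotein of the thick ascending limb, read 75.7 and 385 against 146813, 132126 and 131959 (-8.17 ± 0.26, adjusted p = 1.24e-11). Egf read 104 and 391 against 73017, 77792 and 71872 (-7.22 ± 0.23). Slc12a1, the transporter blocked by loop diuretics, read 156 and 75.3 against 43011, 47053 and 35044 (-6.76 ± 0.19). Umod and Egf were higher on replicate 2 than on replicate 1, and Slc12a1 the reverse, all near the floor. The thiazide-sensitive transporter Slc12a3 differed by -2.74 ± 0.31. Slc8a1, a sodium-calcium exchanger that other tissues also express, read 8995 and 10215 against 9222, 7817 and 8635, with an interval of -0.12 to 0.44 that lies within 2-fold. The calcium channel gene Trpv5 was the one member higher by adjusted p alone (1013 and 1512 against 802, 723 and 594; 0.64 ± 0.24, adjusted p = 0.0375).

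In the collecting duct, the derivative of the bud itself, 33 of 41 genes were tested, 23 lower and 1 higher (median -2.87). Aqp2, the vasopressin-regulated water channel of principal cells, read 81.8 and 73.4 against 30930, 34045 and 30065 (-6.52 ± 0.44, adjusted p = 1.78e-08). Proton pump subunits of intercalated cells were lower to different extents. Atp6v1g3 read 200 and 27.3 against 26681, 34365 and 29912 (-6.34 ± 0.29), and Atp6v0a4 read 319 and 443 against 29577, 32121 and 31088 (-5.59 ± 0.15), while Atp6v1b1 and Atp6v1c2 differed by -3.46 ± 0.26 and -3.42 ± 0.29. The kidney cadherin Cdh16 read 912 and 1269 against 38564, 37141 and 37579 (-4.82 ± 0.22). Hsd11b2, which shields the mineralocorticoid receptor from cortisol and corticosterone, was not lower: it read 29020 and 26184 against 21491, 18374 and 19176 (0.48 ± 0.17, adjusted p = 0.0247), with an interval of 0.13 to 0.84. Slc14a2, a urea transporter, overlapped between the groups with an interval of -0.64 to 0.37. Gata2 was the gene called higher, at 4798 and 11431 against 1928, 1951 and 2107 (1.77 ± 0.29); without recombined replicate 2 no gene of this group was.

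Podocyte genes divided. Of 32 genes, 25 were tested, 7 lower and 3 higher, and 7 had an interval within 2-fold, against 41.7% of all genes. The slit diaphragm gene Nphs1 read 16.4 and 360 against 1307, 1284 and 2027 (-2.06 ± 0.32, adjusted p = 7.72e-05). Rhpn1 read 358 and 257 against 6309, 5695 and 6062 (-3.45 ± 0.24), and Ptgds differed by -3.36 ± 0.25. Synpo, an actin regulator of foot processes, read 6864 and 5459 against 7373, 5507 and 6845, with an interval of -0.43 to 0.26. Wt1, present in podocytes and their progenitors, was higher at 11563 and 13911 against 2355, 2324 and 2476 (2.29 ± 0.18, adjusted p = 9.68e-08). The sulfatase Sulf1 read 12124 and 6032 against 495, 413 and 399 (3.65 ± 0.28), and the channel Trpc6 read 6217 and 3188 against 211, 27.7 and 204 (3.53 ± 0.31). Sulf1 and Trpc6 are not restricted to podocytes, and smooth muscle expresses Trpc6.

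Of 30 genes of nephron progenitors, 23 were tested, 9 higher, 1 lower and 13 not called (median 1.39), and 17 were higher by adjusted p alone, against 33.9% of all genes. Eya1 read 3348 and 6209 against 1263, 1152 and 1141 (1.73 ± 0.23). Capn6 read 3138 and 8127 against 425, 381 and 358 (3.02 ± 0.26), and the imprinted Nnat read 2679 and 8561 against 538, 559 and 831 (2.5 ± 0.4). In all 3 genes replicate 2 was the higher array. Sall1 read 7220 and 12131 against 5583, 4985 and 6840, and its difference of 0.68 ± 0.25 was under 3-fold. Crym, a thyroid hormone binding protein, was the gene called lower (5388 and 3591 against 32734, 32698 and 35354; -2.86 ± 0.22). Hoxd11 overlapped between the groups (0.02 ± 0.27), as did Pax2, at 1033 and 4291 against 2534, 3006 and 4756.

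Of 28 ureteric bud genes, 19 were tested, 2 higher and 4 lower (median -0.02, and 0.11 after quantile normalization). Among all genes tested, 8.79% were higher and 9.26% lower, and the count of bud genes called higher is near that share. Ret, the receptor of bud tips, read 2268 and 1628 against 44.1, 22.1 and 31.1 (2.86 ± 0.19, adjusted p = 1.43e-08). Etv4, a transcription factor downstream of Ret, read 728 and 2291 against 19.3, 86.9 and 164 (2.17 ± 0.46), and Etv5 read 1606 and 1833 against 696, 515 and 515, under 3-fold (1.24 ± 0.22). Without recombined replicate 2, 1 gene was called higher. Among epithelial genes shared with mature ducts, Krt8 read 1654 and 1826 against 18121, 17918 and 17312 (-3.17 ± 0.13), and Cdh1, E-cadherin, read 1686 and 3335 against 8381, 9598 and 9179 (-1.81 ± 0.21). The homeobox gene Emx1 differed by -2.77 ± 0.26. Krt18 (1945 and 3187 against 3045, 4862 and 3664; -0.55 ± 0.23), Gata3 (-0.44 ± 0.29) and Gfra1, the coreceptor of Ret (0.55 ± 0.25), were not called and overlapped between the groups.

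Among 27 tested of 32 early nephron genes, 2 were higher and 8 lower (median -0.21), and without recombined replicate 1, 4 were higher. The count called higher is near the 8.79% of all genes, while 9.26% of all genes were lower. Wnt4, which starts the conversion of mesenchyme to epithelium, read 9779 and 14381 against 67.7, 691 and 297 (4.41 ± 0.33, adjusted p = 5.3e-08). Osr2 read 8278 and 10153 against 1012, 896 and 772 (3.02 ± 0.32). Among Notch pathway genes of the segmenting nephron, Jag1, Hes1 and Lfng differed by -0.21 ± 0.34, -0.29 ± 0.14 and 0.05 ± 0.28, and each overlapped between the groups. The Notch target Hey1 read 1718 and 4712 against 945, 882 and 724, under 3-fold (1.49 ± 0.28). Lhx1 read 546 and 2356 against 897, 1540 and 1546, with replicates on either side of Wk4. Pax8 read 1503 and 4876 against 12654, 19735 and 17844 (-2.47 ± 0.33). The segment genes Irx3 and Irx1, which mark the middle of the nephron, were lower, Irx3 at 372 and 493 against 8359, 9017 and 8910 (-3.69 ± 0.18) and Irx1 by -2.95 ± 0.18. Bmp7 was lower too (1298 and 1700 against 9352, 8659 and 9655; -2.43 ± 0.21).

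**Figure D4:**
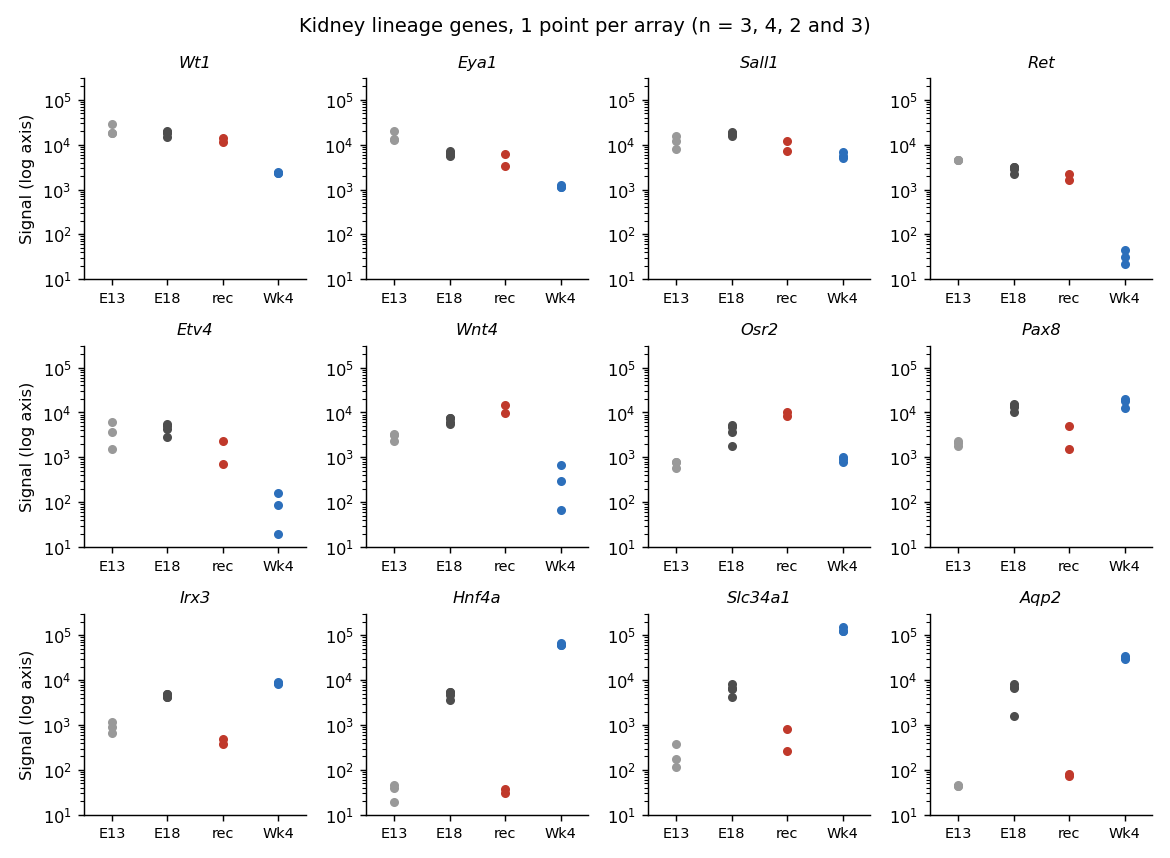
Deposited signal (log axis, arbitrary units) of 12 kidney lineage genes, 1 point an array, with the E13 and E18 arrays drawn for context (n = 3, 4, 2 and 3 for E13, E18, recombined and Wk4). Ret, Etv4, Wnt4 and Osr2 lay above Wk4 on both recombined arrays, and Pax8, Irx3, Hnf4a, Slc34a1 and Aqp2 lay below.

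Of 34 genes of the renal stroma, 29 were tested, 13 higher, 1 lower and 15 not called (median 1.31). Meis1, a homeobox gene of stromal cells, read 34396 and 34932 against 2707, 1696 and 2141 (3.85 ± 0.18, adjusted p = 4.65e-10). The atypical cadherin Fat4 read 13680 and 13691 against 1002, 736 and 1135 (3.52 ± 0.24), and the nuclear receptor Nr2f1 read 5687 and 5109 against 372, 128 and 182 (3.54 ± 0.31). The recombined replicates were close in all 3. Aldh1a2, which makes retinoic acid, read 18100 and 29424 against 4475, 3178 and 3520 (2.56 ± 0.19). Pdgfra read 28901 and 35119 against 11137, 9450 and 12768, just under 3-fold (1.51 ± 0.15). Ntn1 was lower (1745 and 2537 against 7360, 6979 and 8070; -1.7 ± 0.21), though not without recombined replicate 1.

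Most tested matrix genes were higher in recombined tissue. Of 66 genes of collagens, matrix and its enzymes, 62 were tested, 39 higher and 0 lower (median 2.31), and summed signals were 1704158 and 1713475 against 430361 to 527408 on the Wk4 arrays. Postn, or periostin, read 48342 and 61493 against 633, 165 and 474 (6.37 ± 0.23, adjusted p = 3.44e-11). The microfibril gene Fbn2 read 14535 and 18453 against 47.5, 26.0 and 198 (5.56 ± 0.28), and the collagen prolyl hydroxylase subunit P4ha3 read 10318 and 8514 against 59.4, 71.0 and 97.7 (4.8 ± 0.19). None of these ranges overlapped. The proteoglycan Vcan differed by 4.52 ± 0.37. Among fibrillar collagens, Col1a1 read 107290 and 170000 against 27871, 14300 and 14571 (2.89 ± 0.33), and Col3a1 read 118148 and 145279 against 36244, 23531 and 24304 (2.24 ± 0.17). Col6a1 differed by 3.93 ± 0.2. Among genes of basement membranes, Col4a6 was called higher (1.77 ± 0.24), Col15a1 differed by 1.26 ± 0.31, Col4a1 by 0.64 ± 0.2, Col4a2 by -0.44 ± 0.34 and Nid1 by 0.34 ± 0.12, and Col4a4, a chain of the mature glomerular membrane, was lower (-1.95 ± 0.28). Mgp, an inhibitor of calcification, read 72301 and 67065 against 74460, 65549 and 68821, with an interval of -0.3 to 0.3.

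Most smooth muscle genes tested were higher. Of 23 contractile genes, 22 were tested, 15 higher and 0 lower (median 2.46). Actg2, the gamma actin of visceral smooth muscle, read 63825 and 28616 against 844, 867 and 312 (5.57 ± 0.35, adjusted p = 7.89e-09). Myocd, the master coactivator of smooth muscle genes, read 11095 and 7856 against 490, 383 and 236 (3.93 ± 0.43). Myh11, the smooth muscle myosin, read 46165 and 15788 against 2815, 2510 and 2359 (3.27 ± 0.37), and Cnn1, or calponin, read 22163 and 8143 against 819, 852 and 433 (3.85 ± 0.34). Replicate 1 was the higher array in these 4 genes, and both arrays were above Wk4 kidney in each. Smtn overlapped between the groups (0.11 ± 0.2).

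Proteases and their inhibitors moved both ways: of 42 genes, 32 were tested, 14 higher and 4 lower (median 1.22). The macrophage elastase Mmp12 read 32648 and 10689 against 548, 525 and 585 (4.53 ± 0.4). The gelatinases Mmp9 (10691 and 6645 against 581, 501 and 561; 3.41 ± 0.42) and Mmp2 (26976 and 23209 against 3358, 2041 and 2509; 3.15 ± 0.19) were both higher, as was Mmp14, which activates Mmp2 (3.06 ± 0.16). Among the inhibitors, Timp1 was higher, at 23789 and 18240 against 2301, 1783 and 1372 (3.36 ± 0.19), as were Timp2 (2.66) and Serping1 (1.8). Timp3 was the inhibitor called lower, at 10755 and 12962 against 70956, 69972 and 74518 (-2.58 ± 0.15). Serpine2, Serpinf1, Cst3 and Cstb were not called. Urokinase, Plau, read 14415 and 4245 against 49896, 49812 and 48318 (-2.61 ± 0.33), and the lysosomal Ctsh differed by -2.89 ± 0.15. The cathepsins Ctsb and Ctsd differed by -0.35 ± 0.15 and 0.35 ± 0.27, within 2-fold.

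Most macrophage genes tested were higher, with higher sums on replicate 1. Of 66 genes, 49 were tested, 33 higher and 1 lower (median 2.1). Without recombined replicate 1, 18 were called higher. The median difference from Wk4 kidney was 2.69 on replicate 1 and 1.54 on replicate 2, and summed signals were 659458 and 334396 against 129960 to 136825. Lilrb4, an inhibitory receptor, read 24842 and 12828 against 74.8, 118 and 67.3 (5.67 ± 0.27, adjusted p = 4.08e-10). The F4/80 antigen gene Adgre1 read 20634 and 7944 against 219, 571 and 533 (4.24 ± 0.35), and the lysosomal marker Cd68 read 31168 and 11694 against 1008, 549 and 1195 (4.07 ± 0.35). Csf1r, the growth factor receptor of the lineage, was alike on both arrays, 9141 and 8856 against 2280, 2034 and 1913 (1.98 ± 0.18). Cd14 read 16451 and 3336 against 1049, 1738 and 1305 (2.27 ± 0.43). The lysozyme gene Lyz2 read 72535 and 53603 against 29663, 26263 and 27766, under 3-fold (1.15 ± 0.17). The lectin Clec10a was the gene called lower (38.5 and 221 against 1389, 1181 and 722; -1.78 ± 0.32), though not without recombined replicate 1.

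Antigen presentation genes were lower or not called. Of 34 genes of major histocompatibility complex (MHC) class II and lymphocytes, 14 were tested, 5 lower and 0 higher. Cd74, the invariant chain, read 493 and 427 against 50612, 48850 and 53077 (-6.13 ± 0.22, adjusted p = 2.6e-11). RT1-Da, a class II alpha chain, read 401 and 423 against 31686, 26819 and 29261 (-5.43 ± 0.22), and RT1-Db1 differed by -3.99 ± 0.26. RT1-Bb was called lower (-2.11 ± 0.81) but overlapped, at 1169 and 1251 against 19846, 900 and 10858. Ciita, the class II transactivator, was dim everywhere and overlapped (692 and 699 against 622, 908 and 517). The RT1 genes are close relatives and polymorphic, and what their probe sets share was not tested. Several lymphocyte genes, among them Lck, Zap70 and Cd5, differed by 0.28 ± 0.18, -0.15 ± 0.27 and 0.3 ± 0.25.

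Gpnmb, a glycoprotein of lysosome-rich macrophages and pigment cells, was the highest named gene after Xist. It read 77731 and 94610 against 590, 662 and 494 (6.66 ± 0.19, adjusted p = 3.1e-12). Of 48 genes of lipid handling and lysosomes, 36 were tested, 7 higher and 5 lower (3 lower without recombined replicate 2). The cholesterol exporter Abca1 read 17489 and 18613 against 1847, 986 and 2889 (3.17 ± 0.27), and the lipase Lpl differed by 2.45 ± 0.21. Nr1h3, a nuclear receptor known to activate Abca1, was lower (416 and 325 against 5163, 5377 and 5412; -3.13 ± 0.23), as was the fatty acid binding protein Fabp3 (-3.47 ± 0.18). The scavenger receptor Cd36 read 9588 and 1541 against 2802, 4220 and 3275, with replicates on either side of Wk4.

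Of 37 endothelial genes, 32 were tested, 12 lower, 1 higher and 19 not called (median -1.24), and summed signals were 74370 and 83046 against 122669 to 137059. Plvap, of fenestrated capillaries, read 173 and 1065 against 17362, 16979 and 19631 (-4.56 ± 0.33, adjusted p = 3.29e-08). The angiopoietin receptor Tek read 297 and 502 against 10870, 12890 and 12328 (-4.21 ± 0.17), and Ehd3 of glomerular capillaries differed by -3.21 ± 0.3. Pecam1 read 695 and 1335 against 3347, 4834 and 4370 (-1.82 ± 0.25). Kdr, the main receptor of vascular endothelial growth factor, read 1430 and 4539 against 8556, 6930 and 9811 (-1.59 ± 0.3). Replicate 2 was the higher array for Plvap, Tek, Pecam1 and Kdr. Cldn5, a claudin of endothelium that podocytes also express, went the other way, at 37047 and 28787 against 2826, 1382 and 2228 (3.82 ± 0.24). Among 14 tested claudins 6 were lower and 2 higher; Cldn10 of the loop differed by -5.35 ± 0.19, and Cldn11 by 2.37 ± 0.27.

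Of 34 red cell genes, 22 were tested, 3 lower and 2 higher, with summed signals of 22765 and 24337 against 118412 to 149376. Among all genes tested, 9.26% were lower and 8.79% higher. Beta globin, Hbb, read 338 and 478 against 112042, 90726 and 80934 (-7.12 ± 0.13, adjusted p = 9.35e-14). Alas2, the first enzyme of red cell heme synthesis, read 172 and 380 against 4088, 3849 and 3123 (-2.87 ± 0.19). Slc4a1, the anion exchanger of red cells and intercalated cells, read 28.6 and 43.8 against 6601, 8528 and 7624 (-4.67 ± 0.23). The embryonic globin Hbe1 was higher, at 932 and 1614 against 99.0, 168 and 72.4 (1.98 ± 0.32). Another embryonic globin, Hbz, was dim on all 5 arrays.

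Most proliferation genes tested were higher. Of 109 cell cycle genes, 95 were tested, 70 higher and 0 lower (median 2.16), against 8.79% of all genes called higher. By adjusted p alone 93 were higher, which held for 33.9% of all genes. Ccna2, cyclin A, read 11253 and 14975 against 806, 749 and 590 (3.76 ± 0.23, adjusted p = 7.21e-09). The mitotic kinase Ttk read 4630 and 6726 against 334, 218 and 18.3 (3.73 ± 0.27). Bub1b, of the spindle checkpoint, read 4177 and 5617 against 172, 139 and 105 (3.65 ± 0.24). Mki67, the antigen used to score dividing cells, read 14783 and 18802 against 2383, 1646 and 1141 (3.13 ± 0.24). The recombined replicates were close in these genes, replicate 2 slightly above replicate 1. The replication clamp Pcna read 32126 and 40007 against 16406, 16326 and 14175, under 3-fold (1.19 ± 0.11). Ccnd1, cyclin D1, was the member lower by adjusted p, at 15328 and 13090 against 36853, 30702 and 30901 (-1.19 ± 0.29).

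Promoters of these genes shared letters known from cell cycle genes. The cell cycle homology region letters TTTGAA (CHR) stood on either strand in 27 of the 60 promoters found for cell cycle genes called higher (45.0%). They stood in 11.6% of promoters tested, 18.1% of all 27457 promoters and 16.7% of those called higher. At the other end, they stood in 19.1% of promoters of the 100 genes with the lowest differences. The letters CCAAT stood in 71.7% of the 60 cell cycle promoters, against 37.6% of those tested and 37.7% of all. Both stood in 22 of the 60 (36.7%), against 4.81% of those tested and 7.25% of all. The AP-1 letters TGANTCA stood in 1.67% of the cell cycle promoters, 4.89% of those tested and 7.33% of all. Bub1b holds the CHR letters once, at -4 (chr3:126016817-126017116, plus strand). Mki67 holds CHR letters 2 times and CCAAT letters 4 times (chr1:199952544-199952843, minus strand), with 1 CHR match running into a CCAAT match on the other strand. The matched letters are in capitals:
Bub1b: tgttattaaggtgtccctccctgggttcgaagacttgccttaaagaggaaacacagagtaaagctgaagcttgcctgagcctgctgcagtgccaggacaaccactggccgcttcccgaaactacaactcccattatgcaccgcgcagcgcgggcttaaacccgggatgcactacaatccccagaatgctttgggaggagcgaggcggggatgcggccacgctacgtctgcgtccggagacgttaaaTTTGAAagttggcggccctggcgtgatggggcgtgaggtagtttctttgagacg
Mki67: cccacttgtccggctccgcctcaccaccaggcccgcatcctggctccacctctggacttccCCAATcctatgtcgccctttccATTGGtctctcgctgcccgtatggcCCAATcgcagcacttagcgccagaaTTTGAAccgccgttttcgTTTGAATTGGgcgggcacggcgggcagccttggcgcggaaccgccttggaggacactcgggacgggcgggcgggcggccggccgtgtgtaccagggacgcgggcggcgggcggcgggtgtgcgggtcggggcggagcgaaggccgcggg

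Of 30 imprinted and fetal growth genes, 20 were tested, 13 higher and 1 lower (median 2.06). Igf2, the fetal growth factor, read 77169 and 102809 against 2396, 1061 and 1383 (5.63 ± 0.23, adjusted p = 8.8e-11). H19, the RNA made from the neighbouring imprinted gene, read 73029 and 74872 against 2294, 1351 and 734 (5.53 ± 0.28). Mest read 11559 and 22768 against 1006, 895 and 637 (3.9 ± 0.33), Meg3 differed by 3.79 ± 0.4 and Grb10 by 3.31 ± 0.11. Igf2r, the receptor that clears Igf2, overlapped with an interval of -0.31 to 0.29. Phlda2 was lower (151 and 127 against 964, 1330 and 1456; -1.88 ± 0.27).

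Of 38 genes of the renin-angiotensin and other hormone systems, 27 were tested, 11 lower and 2 higher (median -0.87). The angiotensin receptor of the fetus, Agtr2, read 15025 and 13520 against 31.3, 281 and 362 (4.94 ± 0.25, adjusted p = 6.89e-10). The adult form, Agtr1a, read 2875 and 4819 against 15670, 10606 and 12293 (-1.7 ± 0.2). The thyroid hormone receptor Thrb read 435 and 514 against 12542, 11976 and 15516 (-4.18 ± 0.2). Igf1 read 73619 and 45976 against 9685, 6200 and 6177 (2.97 ± 0.26). Kl, or klotho, differed by -2.47 ± 0.27.

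Of 67 growth factors and their regulators, 57 were tested, 14 higher and 8 lower (median 0.62). Inhba, the activin A subunit, read 23666 and 12466 against 27.1, 159 and 151 (5.53 ± 0.27, adjusted p = 5.72e-10). Mdk, or midkine, read 11957 and 27999 against 2794, 2319 and 3063 (2.64 ± 0.24), and its relative Ptn differed by 2.68 ± 0.16. Sostdc1, an antagonist of bone morphogenetic proteins (BMPs) and Wnt ligands in distal tubule, read 946 and 978 against 23395, 25257 and 22137 (-4.27 ± 0.16), and Bmp4 differed by -1.76 ± 0.26. Vegfa read 11958 and 9712 against 12760, 12198 and 14177, with an interval of -0.88 to 0.35. Of 49 Wnt and retinoid genes, 41 were tested, 12 higher and 2 lower (median 0.72). The retinoic acid binding proteins Crabp1 (10562 and 10328 against 784, 622 and 380; 3.66 ± 0.22) and Crabp2 (3.52 ± 0.19) were higher. Aldh1a1, a retinal dehydrogenase of mature kidney, read 2774 and 4731 against 67218, 68785 and 67177 (-4.12 ± 0.16), opposite to Aldh1a2 of the stroma.

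Other genes among the 15 highest named genes were Cdh22, Nrk, Ntrk2 and Bcat1. Cdh22, a cadherin, read 18819 and 18718 against 413, 90.4 and 13.2 (5.53 ± 0.31). Nrk, a kinase of embryonic mesenchyme, read 6959 and 15662 against 19.5, 55.6 and 26.3 (5.14 ± 0.37). Ntrk2, a neurotrophin receptor, read 19701 and 20876 against 253, 514 and 515 (4.9 ± 0.24). The enzyme Bcat1, which transaminates branched-chain amino acids, read 10930 and 7148 against 33.8, 62.1 and 46.5 (4.84 ± 0.32).

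Markers of cells outside the kidney lineages were measured too. Of 32 neural and Schwann cell genes, 22 were tested, 13 higher and 1 lower (median 1.75), with summed signals of 83993 and 54635 against 17009 to 20009. Without recombined replicate 1, 8 were called higher. Stmn2, of growing neurites, read 10651 and 2953 against 39.2, 110 and 287 (3.88 ± 0.39). The nerve growth factor receptor Ngfr read 1969 and 3894 against 77.3, 85.5 and 57.4 (3.15 ± 0.28), and the growth cone gene Gap43 differed by 3.02 ± 0.31. The myelin gene Mbp was the gene called lower (-1.69 ± 0.21). The count of genes called lower was 0 without Wk4 replicate 2 and 2 without Wk4 replicate 1 or without recombined replicate 1. The Schwann marker Sox10 did not pass the filter. Skeletal muscle and cartilage held 18 tested of 39, 5 higher and 2 lower, with 3 higher without recombined replicate 1 or without replicate 2, and 1 lower without Wk4 replicate 3. Tnnt2 read 2845 and 2760 against 32.4, 365 and 17.6 (3.01 ± 0.28), and the cartilage collagen Col2a1 differed by 2.52 ± 0.44. The probe set standing for Myh1, a fast myosin, was bright on the Wk4 arrays (7839 and 6316 against 83806, 91712 and 77290; -3.53 ± 0.13). It was the brightest of 5 kept for this gene, and it read 21262 to 23938 on the E13 arrays. Whether it binds other transcripts was not tested. Of 30 urothelial and keratin genes, 22 were tested, 6 lower and 1 higher; Perp differed by -3.59 ± 0.19 and Krt7 by -3.57 ± 0.24. Upk1b was higher (1.63 ± 0.31), though not without recombined replicate 1 or without Wk4 replicate 1. The part of such cells in the other groups was not tested.

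Of 44 injury and dedifferentiation genes, 38 were tested, 11 higher and 2 lower (median 0.88). Lgals1 read 59579 and 46505 against 5553, 3710 and 5341 (3.38 ± 0.19), and Vim, or vimentin, 76288 and 79771 against 13789, 12626 and 10400 (2.65 ± 0.14). Both are also abundant in mesenchyme. Cryab, a small chaperone, was lower at 5042 and 2311 against 65146, 66025 and 51577 (-4.04 ± 0.28). Spp1, or osteopontin, read 111481 and 65746 against 49093, 52452 and 41098, under 3-fold (0.85 ± 0.19).

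Glycolysis and hypoxia genes depended on the array. Of 41 genes, 39 were tested, 4 higher and 2 lower (median -0.15), beside 8.79% and 9.26% of all genes. The median difference from Wk4 kidney was 0.29 on replicate 1 and -0.6 on replicate 2, and 9 were called lower without replicate 1 and 1 without replicate 2. Ndrg1 was lower on both (8175 and 5384 against 125948, 113075 and 106152; -4.06 ± 0.22). The neuronal enolase Eno2 was higher on both (8432 and 3594 against 334, 297 and 396; 3.24 ± 0.37), as was the glucose transporter Slc2a3 (2.4 ± 0.36). Tpi1, of glycolysis, read 36321 on replicate 1 and 8679 on replicate 2 against 61360, 53792 and 54544 (-1.65 ± 0.4). The lactate exporter Slc16a3 read 4905 and 454 against 745, 457 and 520, so replicate 1 was above Wk4 kidney and replicate 2 was not. Adrenomedullin, Adm, read 3755 and 378 against 1579, 1378 and 1331.

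The recombined arrays were also set against Wk4 kidney separately. Taken alone, replicate 1 put 1080 genes (9.06%) at least 3-fold above the Wk4 mean and outside its range and 1139 (9.56%) below, and replicate 2 put 1072 (8.99%) and 1116 (9.36%). Of the 2152 called genes, 1757 met this on both arrays. A further 462 genes met it on replicate 1 only and 431 on replicate 2 only. Both counts use the same Wk4 arrays. The arrays were at least 3-fold apart in 88 genes (0.74%), and the farthest of the 3 pairs of Wk4 arrays in 85 (0.71%). The median absolute difference was 0.28 between the recombined arrays and 0.17 between a pair of Wk4 arrays. Replicate 1 was the higher in 64 of the 88. Chemokine and Fc receptor genes were among the largest: Ccl7 read 9807 and 518, Ccl2 read 31273 and 4541, and Fcgr2b read 9902 and 1358. The protease-like gene Prss35 read 49498 and 5907, and the calmodulin regulator Pcp4 read 6227 and 897. On the other side, the claudin Cldn7 read 369 and 2843, the enzyme Cbs 55.9 and 1162, and the brush border bundler Espn 272 and 1757. The histone chaperone Hira (937 and 4695), the heat shock protein Hspa4 (2294 and 9853), Herc1 (991 and 4346) and Ing3 (913 and 3604) were also higher on replicate 2. With 1 array on each side these differences have no test.

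**Figure D5:**
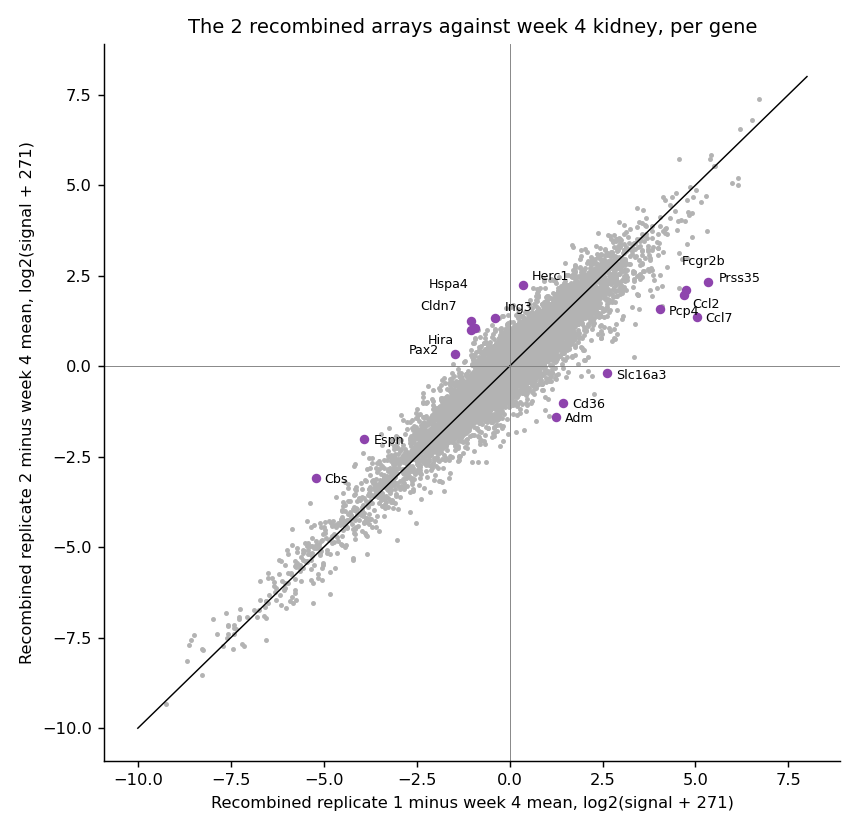
Difference of each gene from the Wk4 mean on recombined replicate 1 (horizontal) and replicate 2 (vertical), on the log2(signal + 271) scale. The line marks equal differences. Purple points are the 8 genes on each side with the largest gap between the 2 arrays. They were taken among genes with a mean signal over the array median, leaving out unnamed clones. Examples are Ccl7 and Prss35 on the side of replicate 1 and Cbs and Espn on that of replicate 2.

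Many genes stood near the same level in both tissues. The 95% interval of the difference lay within 2-fold for 4968 genes (41.7%). Most ribosomal protein genes were in this group: of 46 tested by symbol, 0 were called and 35 lay within 2-fold. Their median was 0.47 (0.31 after median centring and 0.7 after quantile normalization). By adjusted p alone 30 were higher and 1 lower, against 33.9% and 25.3% of all genes. Rpl3 read 113828 and 139328 against 96193, 87363 and 86213. Of 36 proteasome subunits, 0 were called and 31 lay within 2-fold, and Psmd3 read 5580 and 5143 against 5271, 5420 and 5346. Solute carriers did not share this: of 261 tested, 90 were lower and 13 higher. Groups did not overlap for 8647 genes (72.5%), many of them separated by small differences.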

How the data were processed

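Affymetrix rat arrays held 31042 probe sets after 57 control probe sets were left out. The authors deposited a table of linear intensity values, whose trimmed means were near equal across arrays (2500.6 to 2500.9, leaving out 2% at each end), while medians ran from 799.4 to 1020.3. GCOS was the software per the submitters' processing notes, while its version was not given in the sources used here. No detection calls were used, and precision is limited by the number of arrays.

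The pseudocount of 271 was the 25th percentile of all values. Probe sets above the 40th percentile of at least 2 of the 12 arrays were kept. limma 3.58.1 (R 4.3.3) fitted 4 groups with an intensity trend, and calls needed a Benjamini-Hochberg adjusted p under 0.05 and 3-fold. The kept probe set with the highest mean stood for a gene, and 20826 probe sets had 1 symbol, 436 several and 9780 none; 20758 matched current RefSeq annotation. Named were the 15 highest and 15 lowest called genes without overlap, leaving out unnamed clones, and the 3 largest differences of each list. Also named were the 8 genes on each side with the largest gap between the recombined arrays. These were taken among genes with a mean signal over the array median, again without unnamed clones. Other list and family members serve as examples chosen with their values seen, as were the promoters printed. The members and lists were chosen with earlier results of these data known, and some genes stand in more than 1 list. Replicate numbers did not pair the arrays (correlations of deviations -0.013 to 0.013). Alternatives covered pseudocount, normalization, filter, variance model, threshold, replicate block, samples fitted, probe set choice and each array left out. In data simulated for this comparison with 21332 probe sets tested, 97% of 4-fold and 100% of 8-fold changes were called, with 4 unchanged probe sets called. Changes of 2-fold lie under the threshold. The changes were planted on the log2(signal + 271) scale with independent normal noise, only in probe sets of intermediate signal, above the array medians. Recovery of changes in dim probe sets was not tested.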

Additional observations from a re-analysis of the deposited data

How the results depend on the processing

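The number of probe sets called moved with the pseudocount and the threshold. With 4 times the pseudocount 1876 probe sets were called, 787 higher and 1089 lower, and with none 2743 were higher. A 2-fold threshold called 6885 (4006 higher and 2879 lower), and adjusted p alone 11974 (7242 and 4732). Leaving out 1 array at a time gave 3412 to 3562 calls, 1735 to 1883 higher and 1638 to 1716 lower, and 3988 to 4590 genes within 2-fold. The replicate block gave 3440 calls (1772 higher and 1668 lower) and 4864 genes within 2-fold, although the numbers pair no arrays. Among list counts, each taken again under every setting, 1072 stayed within 1.5 times and 106 moved. Counting each named gene (up to 96) again under every setting, 1721 differences kept their direction and call. With 4 times the pseudocount, 3 fell under 3-fold: Ret, Slc2a3 and Col2a1. In this design culture, stage and sex cannot be told apart, there were only 2 recombined arrays, and dim genes have understated folds.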
